A study of Mus musculus with 8 samples.

Results

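Ephrins and their Eph receptors were followed in brain endothelial cells (ECs) of mice in which part of these cells express MAP2K1 (p.K57N), a constitutively active form of the kinase MEK1. The set holds 10 genes, fixed by name and found through their Ensembl identifiers: the ligands *Efna1*, *Efnb1* and *Efnb2*, and the receptors *Epha2*, *Epha3*, *Epha4*, *Ephb1*, *Ephb2*, *Ephb3* and *Ephb4*. The count files list 49315 genes in all, of which 16887 had enough counts to be tested. All 10 genes of the set were among them. The question was how the levels of these genes differ between mutant and wild-type ECs.

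Each of 4 mutant and 4 wild-type mouse pups gave 1 RNA sequencing library from its brain. The mutant pups carried *R26* GT-Map2k1-GFP/+, an allele of the *Rosa* locus that expresses the mutant cDNA and GFP after Cre recombination, together with *Tg-Cdh5CreER* +/-, a tamoxifen-activated Cre driven by the promoter of the EC gene *Cdh5*. The control libraries are labelled wild type. The study also describes controls with *Tg-Cdh5CreER* +/- or *R26* GT-Map2k1-GFP/+ alone. Whether any pup behind the wild-type libraries carried the Cre or that allele is not settled here. All pups received tamoxifen at P1 and were taken at P9, and ECs were pulled from the digested brain with beads that bind CD31. Recombination was mosaic, and the study found the recombined allele in a minority of the brain ECs of such pups. Every mutant library thus mixes recombined and unrecombined cells, and a difference between the groups is an average over both. Below, mutant ECs means the ECs of mutant pups, recombined or not. In such bulk libraries, fewer cells of a type and less RNA per cell cannot be told apart.

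Ephrins are membrane-bound ligands. Ephrin-A proteins are held by a lipid anchor and mainly bind EphA receptor tyrosine kinases, and ephrin-B proteins span the membrane and mainly bind EphB receptors, with EphA4 among the exceptions that bind both. Signals run into both of the touching cells, which can repel, attract or sort them. In vessels, ephrin-B2 is known as a marker of arterial ECs and its receptor EphB4 as a marker of venous ECs, and mouse embryos that lack either one fail to form a proper vascular network.

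Libraries held 24833373 to 34196955 counts on genes, with overlapping ranges in both groups. *Map2k1*, whose counts include those of the mutant cDNA, was 9.07-fold higher in mutant ECs (edgeR adjusted p = 2.84e-07), and its groups did not overlap. None of 10 EC markers was at 0 in any library, and their summed level, in RPKM (read counts scaled to exon length and library size), was 3003 to 3607 in mutant and 3008 to 3816 in wild-type libraries. Of these markers *Pecam1*, *Cdh5* (2.15-fold) and *Emcn* were called higher and *Kdr*, *Tek* and *Cldn5* lower. Markers of some other cell types differed between the groups. The summed level of 10 neuron markers was 4.55 to 6.70 RPKM in mutant and 8.45 to 22.6 RPKM in wild-type libraries, and 7 of the 10 were called lower. Of the 3 not called, *Syt1* and *Slc17a7* were lower, and *Rbfox3* went the other way (log2 fold change 1.19, edgeR adjusted p = 0.0514). Summed levels of 9 oligodendrocyte markers (at most 16.7 RPKM against at least 24.7 RPKM) and of 7 red blood cell genes (110 to 359 RPKM against 669 to 1163 RPKM) were lower in every mutant library, and each of those genes was called lower. The sum of 9 astrocyte markers was higher in mutant libraries (200 to 241 RPKM against 127 to 149 RPKM) and consisted mostly of *Gja1*, a gap junction gene that is not limited to astrocytes and the one marker of the list called higher, while *Aldh1l1*, *S100b* and *Sox9* were called lower. No marker of these lists was at 0 in any library. Summed pericyte, smooth muscle, fibroblast and microglia levels overlapped between the groups. Single genes of them were called, with *Abcc9* (3.43-fold) and *Kcnj8* of the 10 pericyte markers, *Tagln* of the 8 smooth muscle markers and *Lum* and *Col1a1* of the 8 fibroblast markers higher, *Pdgfra* and *Col3a1* of the latter lower, and none of the 10 microglia markers. The part of other cell types in the results below was not tested. Some values are also given without the pair of wild-type libraries highest for neuron markers. The other wild-type libraries, at 8.45 and 9.70 RPKM, still lay above every mutant library for these markers, so such values cannot decide that part. Of these 2 sums, 3.84 and 4.85 RPKM were *Stmn2*, a gene also counted as arterial below. It was at 0.746 to 2.47 RPKM in mutant libraries.

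Among the 10 genes, *Ephb1* rose and *Efnb1*, *Epha2*, *Epha3*, *Epha4* and *Ephb2* fell in mutant ECs. *Efna1*, *Efnb2*, *Ephb3* and *Ephb4* did not pass the test. A gene was called at an adjusted p under 0.05 in edgeR's quasi-likelihood test, with p-values adjusted by Benjamini-Hochberg over all 16887 genes, and differentially expressed if its absolute log2 fold change was also over 1. The 1 called higher compares with 21.5% of all tested genes called higher, and the 5 called lower with 22.9% of all tested genes called lower. With the limit on fold change, 1 gene of the set was higher, where 5.9% of all genes were, and 2 were lower (*Epha3* and *Ephb2*), where 8.05% were. The median log2 fold change was -0.30 over the set and -0.02 over all tested genes. The groups were separate, with every mutant library on one side of every wild-type library, for the 6 called genes and for 42.5% of all tested genes.

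**Figure D1:**
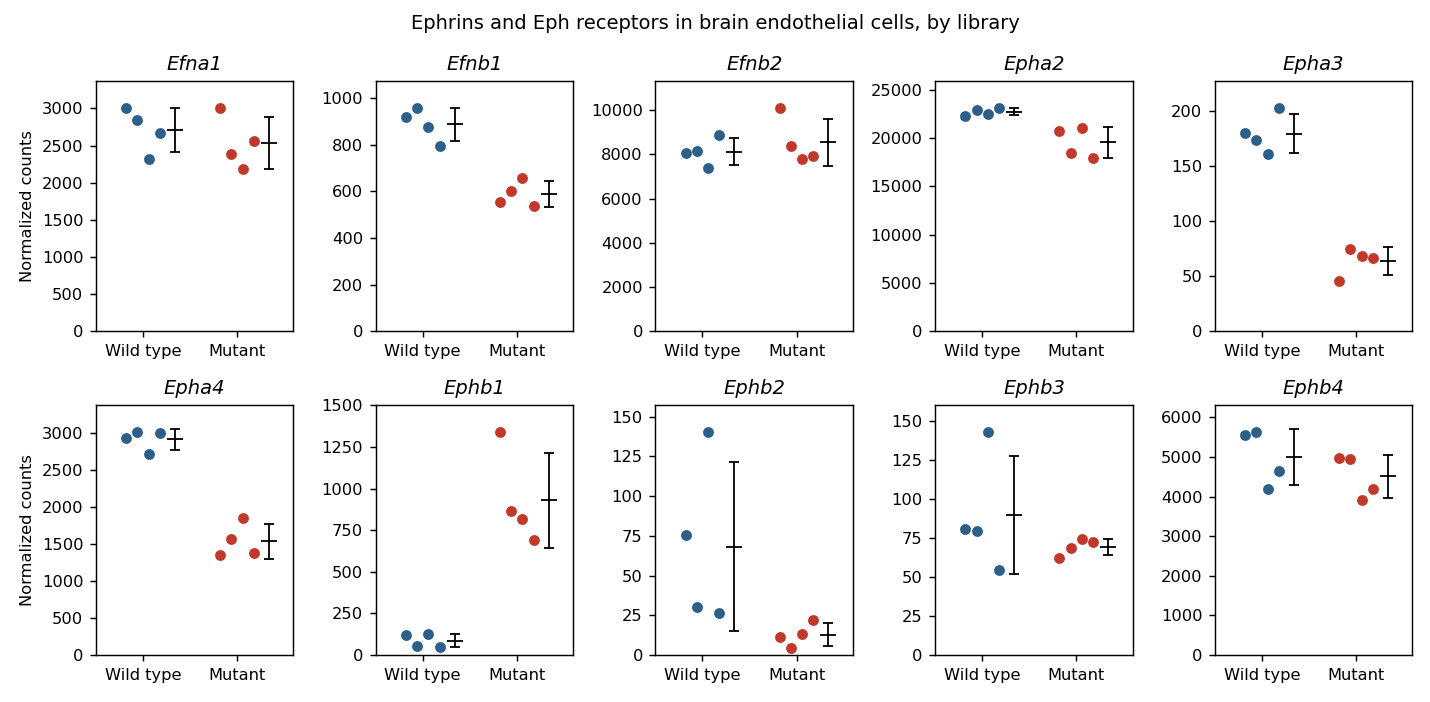
Normalized counts of the 10 genes in each library (one point per pup, wild type in blue and mutant in red, y axes starting at 0 and differing between panels), with the mean and SD of 4 libraries as bars. *Ephb1* is higher in every mutant library, *Efnb1*, *Epha2*, *Epha3*, *Epha4* and *Ephb2* are lower in every mutant library, and the groups overlap for the other 4 genes.

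*Ephb1* (ENSMUSG00000032537) encodes a receptor for ephrin-B ligands that is best known from the nervous system, where it guides axons. In GRCm38 it is on chromosome 9, minus strand, from 101922128 to 102354693. Mutant libraries 1 to 4 had 1343, 863, 818 and 690.1 normalized counts of *Ephb1*, which are counts scaled by edgeR's TMM factors to the mean library total. Wild-type libraries 1 to 4 had 118, 53.5, 124 and 48.4. The lowest mutant library stood far above the highest wild-type library. The fitted difference was 10.7-fold, a log2 fold change of 3.42 (standard error 0.33, 95% interval 2.69 to 4.15, edgeR adjusted p = 3.5e-05). Omitting single libraries gave log2 fold changes from 3.21 to 3.66. Within the wild type, replicates 1 and 3 were highest both for *Ephb1* and for the neuron list (15.8 and 22.6 RPKM, against 8.45 and 9.70 RPKM in replicates 2 and 4). Without that pair its log2 fold change was 4.203 (edgeR adjusted p = 1.17e-04). An exon of *Ephb1* shares 152 of 7002 exonic bases with *Gm26846* on the other strand, and without strand information reads there cannot be told apart.

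The receptor levels per exon length show what this rise amounted to. *Ephb1* was at 0.414 ± 0.196 RPKM (SD, n = 4) in wild-type ECs, where it held 1.115% ± 0.580 (SD, n = 4) of the summed level of the 5 EphB receptor genes *Ephb1*, *Ephb2*, *Ephb3*, *Ephb4* and *Ephb6*. In mutant ECs it was at 4.47 ± 1.38 RPKM (SD, n = 4) and held 11.7% ± 2.37 (SD, n = 4). The share of *Ephb4* was 95.9% ± 2.18 (SD, n = 4) in wild-type and 86.5% ± 2.46 (SD, n = 4) in mutant ECs, so it remained the main EphB receptor transcript. The summed level of the 5 genes was 32.8 to 42.2 RPKM in wild-type and 33.2 to 43.4 RPKM in mutant libraries, and these ranges overlapped.

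*Ephb4* (ENSMUSG00000029710), the venous receptor for ephrin-B2, lies on the plus strand of chromosome 5 from 137350109 to 137378669. It had 4975, 4959, 3906 and 4193 normalized counts in mutant libraries 1 to 4, and 5549, 5641, 4185 and 4649 in wild-type libraries 1 to 4. The groups overlapped, with replicate 3 the lowest library of each. Its log2 fold change was -0.15 (95% interval -0.41 to 0.11, edgeR adjusted p = 0.318). The sample labels carry 3 prefixes, of which one covers replicates 1 and 2 of both groups, one replicate 3 and one replicate 4. The study matched wild-type to mutant pups in number within each litter, and the prefixes hold equal numbers of both groups, but no source used here says that a prefix marks a litter. With the prefix as a block *Ephb4* passed the test with a log2 fold change of -0.15 (edgeR adjusted p = 0.0404).

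*Efnb2* (ENSMUSG00000001300), the arterial ligand, lies on the minus strand of chromosome 8 from 8617434 to 8661242. It had 10111, 8376, 7802 and 7929 normalized counts in mutant libraries 1 to 4, and 8059, 8173, 7403 and 8893 in wild-type libraries 1 to 4. The groups overlapped, and the log2 fold change was 0.07 (95% interval -0.14 to 0.29, edgeR adjusted p = 0.567). The interval lies within a log2 difference of 1 in either direction. Set against its receptor per exon length, *Efnb2* stood at 1.38, 1.14, 1.35 and 1.28 times the level of *Ephb4* in mutant libraries 1 to 4 and at 0.983, 0.981, 1.20 and 1.29 times in wild-type libraries 1 to 4. These ratios overlapped between the groups.

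The gene starts of *Ephb1*, *Efnb2* and *Ephb4* are shown because they contrast the gene that rose with the arterial and venous pair that did not pass the test. Each sequence is the stretch of 250 bases just before the gene start in RefSeq on GRCm38.p6, 5′ to 3′ on the strand of the gene, at chr9:102354694-102354943 for *Ephb1* (minus strand), chr8:8661243-8661492 for *Efnb2* (minus strand) and chr5:137349859-137350108 for *Ephb4* (plus strand). Capitals mark the letters of a GC box, GGGCGG on either strand.
Ephb1: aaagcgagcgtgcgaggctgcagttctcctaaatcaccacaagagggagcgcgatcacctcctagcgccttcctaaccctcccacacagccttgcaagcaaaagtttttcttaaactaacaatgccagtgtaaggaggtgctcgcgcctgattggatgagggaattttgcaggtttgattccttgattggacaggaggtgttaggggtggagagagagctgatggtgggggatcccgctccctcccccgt
Efnb2: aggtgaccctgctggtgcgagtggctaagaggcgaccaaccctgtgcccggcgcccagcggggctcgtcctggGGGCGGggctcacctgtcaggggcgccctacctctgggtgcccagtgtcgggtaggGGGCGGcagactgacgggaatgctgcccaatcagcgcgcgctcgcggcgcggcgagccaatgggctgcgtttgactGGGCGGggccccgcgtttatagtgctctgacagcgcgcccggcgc
Ephb4: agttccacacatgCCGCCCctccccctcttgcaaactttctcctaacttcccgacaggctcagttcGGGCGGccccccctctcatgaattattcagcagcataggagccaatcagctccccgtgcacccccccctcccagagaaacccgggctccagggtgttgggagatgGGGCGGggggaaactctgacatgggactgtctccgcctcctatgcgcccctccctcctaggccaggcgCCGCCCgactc
No GC box was found before *Ephb1*, 3 before *Efnb2* and 4 before *Ephb4*. Of 32851 RefSeq gene starts, 32.7% hold at least 1 in these 250 bases. All 10 genes matched an entry, with 11 starts in all because *Efna1* has 2. The GC box was found before *Efna1*, *Efnb2*, *Epha2*, *Epha4*, *Ephb3* and *Ephb4*, and not before *Efnb1*, *Epha3*, *Ephb1* and *Ephb2*. The 4 genes without it were all called and 2 of the 6 genes with it were (*Epha2* and *Epha4*), which is a description of these windows only. Of all tested genes, 21.5% were called higher and 22.9% lower. These shares were not computed for genes with and without a GC box, so no link between the box and the calls can be read from this. Among the other ephrins and Eph receptors tested, *Efna4* had no GC box and was not called. *Efna3* and *Efna5* had it and were called, and *Efna2*, *Epha1*, *Epha7*, *Epha8* and *Ephb6* had it and were not called. *Efnb3* matched no entry. Motifs of factor families downstream of ERK were searched too, and neither TGANTCA, which AP-1 binds and which 6.75% of all starts hold, nor CCGGAAG, which ETS factors bind and 6.91% hold, was in any of the 11 windows on either strand. The E-box CACGTG (6.02% of all starts) was absent from them as well.

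*Ephb2* (ENSMUSG00000028664) encodes a further ephrin-B receptor, and it lies on the minus strand of chromosome 4 from 136647539 to 136835988. It had few reads: 11.4, 4.42, 13.3 and 21.7 normalized counts in mutant libraries 1 to 4, and 75.4, 30.0, 141 and 26.3 in wild-type libraries 1 to 4. All mutant libraries were below all wild-type libraries, and mutant 4 came close to wild type 4. Its log2 fold change was -2.39 (standard error 0.60, 95% interval -3.72 to -1.05, edgeR adjusted p = 0.0087), and it was -1.75 without wild type replicate 3. Wild-type replicates 3 and 1 were highest both for *Ephb2* and for the neuron list, which summed to 15.8, 8.45, 22.6 and 9.70 RPKM in wild-type libraries 1 to 4. Both replicates were also highest for the oligodendrocyte list (61.9, 46.3, 57.8 and 24.7 RPKM). The order of *Ephb2* and of the neuron list differed between wild type 2 and 4 and between mutant 1 and 2. Which cells its reads came from was not tested. Without replicates 1 and 3 of the wild type, a choice made after these values were seen, the log2 fold change was -1.09 (standard error 0.51) and no longer passed the test (edgeR adjusted p = 0.143). Under a stricter filter on low counts *Ephb2* was not tested.

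**Figure D2:**
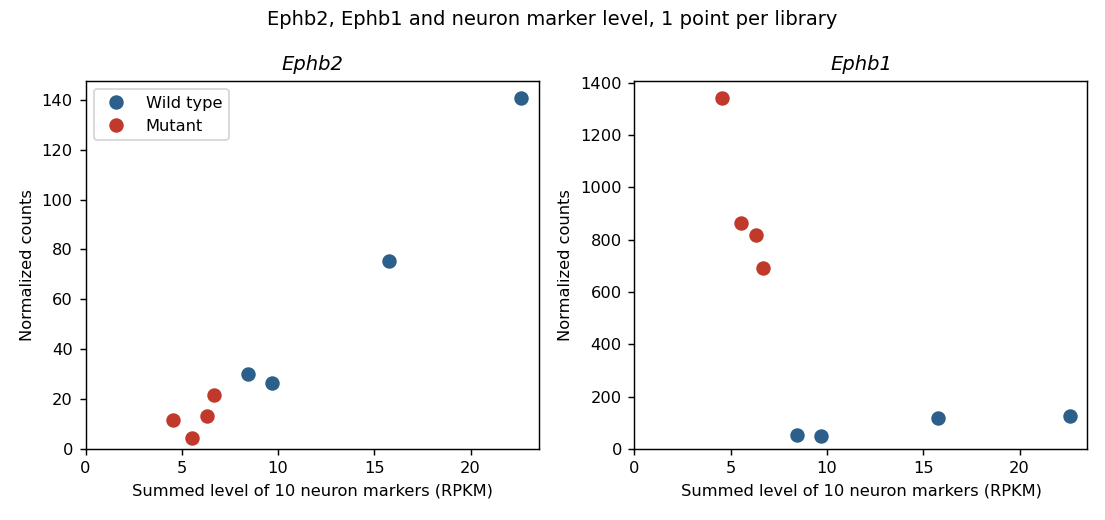
Normalized counts of *Ephb2* (left) and *Ephb1* (right) against the summed level of 10 neuron markers in RPKM, one point per library, wild type in blue and mutant in red, all axes starting at 0. The wild-type libraries with 15.8 and 22.6 RPKM of neuron markers are also the highest for *Ephb2*, while *Ephb1* is high in the 4 mutant libraries, which lie between 4.55 and 6.70 RPKM.

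*Ephb3* (ENSMUSG00000005958), an ephrin-B receptor on the plus strand of chromosome 16 from 21204755 to 21223305, had 62.0 to 74.1 normalized counts in mutant and 54.8 to 143 in wild-type libraries. The mutant libraries lay within the wild-type range. At a log2 fold change of -0.38 (95% interval -0.98 to 0.22) it did not pass the test (edgeR adjusted p = 0.283). Wild-type replicate 3, the library highest for neuron markers, was also the highest for *Ephb3*. It was the highest wild-type library for microglia and smooth muscle markers as well.

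Among the EphA receptors, *Epha2* (ENSMUSG00000006445) was by far the most abundant. It encodes the main EC receptor for ephrin-A1 and lies on the plus strand of chromosome 4 from 141301240 to 141329384. It had 20769, 18452, 21056 and 17925 normalized counts in mutant libraries 1 to 4, and 22344, 22897, 22509 and 23140 in wild-type libraries 1 to 4. Every mutant library was below every wild-type library, with mutant 3 the nearest. Its log2 fold change was -0.22 (95% interval -0.39 to -0.05, edgeR adjusted p = 0.039), or 86.0% of the wild-type level. This call was lost when any single library other than mutant replicate 3 was left out (edgeR adjusted p up to 0.123). In edgeR it was also lost with DESeq2-style size factors in place of TMM (adjusted p = 0.0606) and without a filter on low counts (0.124). Omitting the pair of wild-type libraries highest for neuron markers lost it too (edgeR adjusted p = 0.173). The direction was kept in each of these fits. With DESeq2 or limma in place of edgeR the call was kept. It was also kept with upper-quartile scaling, library totals alone, a stricter filter, and the replicate number or label prefix as a block.

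*Epha4* (ENSMUSG00000026235), which binds ephrins of both classes, fell to 52.7% of the wild-type level. It lies on the minus strand of chromosome 1 from 77367185 to 77515088. Mutant libraries 1 to 4 had 1343, 1567, 1855 and 1373 normalized counts, and wild-type libraries 1 to 4 had 2923, 3015, 2707 and 2999. The gap between the groups was wider than the range within either one. This was a log2 fold change of -0.92 (standard error 0.10, edgeR adjusted p = 7.54e-05), and between -1.02 and -0.84 when single libraries were omitted. It was -0.95 without the pair of wild-type libraries highest for neuron markers (edgeR adjusted p = 0.00163).

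*Epha3* (ENSMUSG00000052504), a receptor for ephrin-A ligands, fell further from a low level. It lies on the minus strand of chromosome 16 from 63543538 to 63864158. Mutant libraries 1 to 4 had 45.5, 75.1, 68.6 and 66.9 normalized counts, and wild-type libraries 1 to 4 had 180.3, 174, 161 and 203. The highest mutant library was well below the lowest wild-type library. The fitted log2 fold change was -1.48 (standard error 0.18, edgeR adjusted p = 1.27e-04), or 35.8% of the wild-type level. It was -1.53 without the pair of wild-type libraries highest for neuron markers (edgeR adjusted p = 0.00227).

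Together, the 9 EphA receptor genes summed to 137 to 162 RPKM in mutant and 177 to 183 RPKM in wild-type libraries, which did not overlap. *Epha2* held 91.4% ± 0.219 (SD, n = 4) of this sum in the wild type and 94.3% ± 0.70 (SD, n = 4) in the mutant. *Epha4* held 6.80% ± 0.266 (SD, n = 4) of it in the wild type and 4.30% ± 0.544 (SD, n = 4) in the mutant.

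*Efna1* (ENSMUSG00000027954), the ligand of EphA2, lies on the minus strand of chromosome 3 from 89271733 to 89281142. It had 3004, 2388, 2187 and 2568 normalized counts in mutant libraries 1 to 4, and 3008, 2850, 2319 and 2676 in wild-type libraries 1 to 4. Both groups covered nearly the same range. The log2 fold change was -0.10 (95% interval -0.34 to 0.15, edgeR adjusted p = 0.498).

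*Efnb1* (ENSMUSG00000031217), an ephrin-B ligand on the plus strand of chromosome X from 99136130 to 99148991, was the ligand of the set that fell. It had 553, 603, 657 and 538 normalized counts in mutant libraries 1 to 4, and 916, 957, 877 and 794 in wild-type libraries 1 to 4. Every mutant library was below every wild-type library. This was a log2 fold change of -0.59 (standard error 0.09, edgeR adjusted p = 6.2e-04), or 66.3% of the wild-type level. Counts on *Xist*, which is transcribed from an inactive X chromosome, were high in 1 mutant and 2 wild-type libraries. With that difference as a term the log2 fold change of *Efnb1* was -0.60 (edgeR adjusted p = 0.00147). Per exon length, the level of *Efnb1* was 0.138 ± 0.0242 times (SD, n = 4) that of *Efnb2* for the mutant and 0.218 ± 0.0273 times (SD, n = 4) for the wild type, and the ratios did not overlap.

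**Figure D3:**
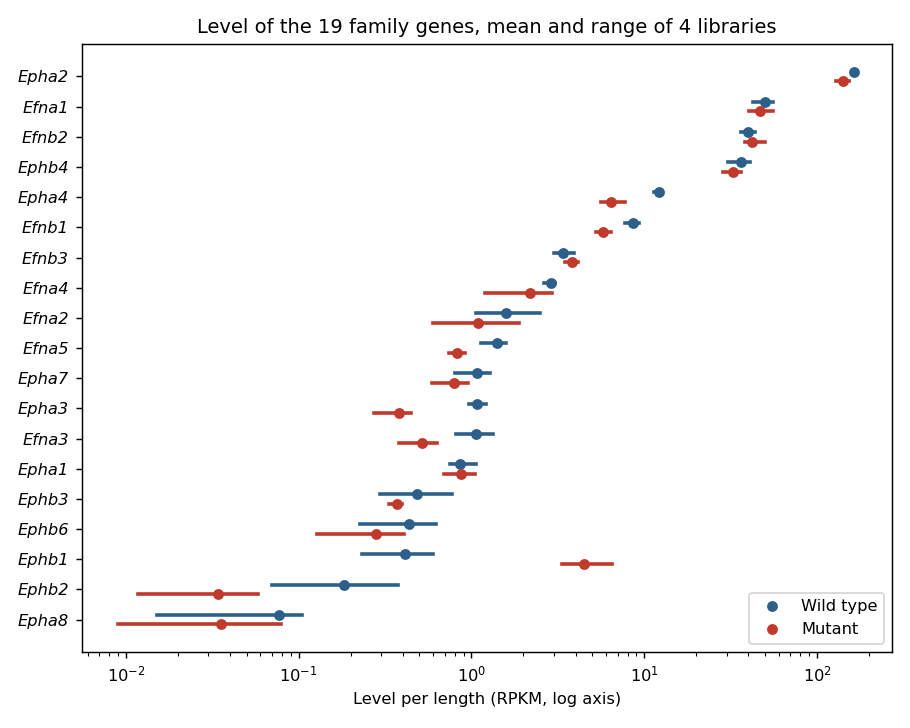
Level per exon length in RPKM, on a log axis, of the 19 family genes tested, ordered by the wild-type mean (point: mean of 4 libraries, line: lowest to highest library, wild type in blue and mutant in red). *Epha2* leads in both groups at 164 RPKM in wild type and 141 RPKM in mutant, and *Ephb1* moves from 0.414 to 4.47 RPKM.

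Levels per exon length in wild-type ECs ran from *Epha2* (164 ± 2.61 RPKM, SD, n = 4) over *Efna1* (50.03 ± 5.46), *Efnb2* (40.0 ± 3.01) and *Ephb4* (36.4 ± 5.14) to *Epha4* (12.2 ± 0.594), *Efnb1* (8.66 ± 0.680), *Epha3* (1.07 ± 0.105), *Ephb3* (0.481 ± 0.202), *Ephb1* (0.414 ± 0.196) and *Ephb2* (0.182 ± 0.143). The ranges of *Efna1* and *Efnb2* overlapped, as did those of *Efnb2* and *Ephb4*, of *Ephb3* and *Ephb1*, and of *Ephb1* and *Ephb2*, so these neighbours were not separated. In mutant ECs *Epha2* (141 ± 11.5 RPKM, SD, n = 4), *Efna1* (46.8 ± 6.42), *Efnb2* (42.1 ± 5.25) and *Ephb4* (32.8 ± 3.94) kept their places, and the ranges of *Efnb2* and *Ephb4* no longer overlapped. *Ephb1* there came after *Epha4* (6.43 ± 0.986) and *Efnb1* (5.74 ± 0.529), and its range overlapped both, while *Epha3* (0.382 ± 0.0765), *Ephb3* (0.371 ± 0.0287) and *Ephb2* (0.0340 ± 0.0191) lay far below. The order of the 10 genes was the same with TPM in place of RPKM.

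Of the other 12 ephrins and Eph receptors, *Epha5*, *Epha6* and *Epha10* had too few counts to be tested, with at most 30 counts in any library. Of the 9 tested, none was called higher and 2 were called lower, both ligands held by a lipid anchor. *Efna3* had 27.6 to 45.4 normalized counts in mutant and 58.9 to 95.8 in wild-type libraries, a log2 fold change of -1.05 (standard error 0.24, edgeR adjusted p = 0.0051). *Efna5* had 88.5 to 109 and 136 to 189, a log2 fold change of -0.75 (standard error 0.15, edgeR adjusted p = 0.00281). Neither gene's groups overlapped, but 14.1% of the exonic bases of *Efna3* are shared with *Gm15998* on the other strand, which was itself lower in mutant ECs (log2 fold change -1.38). The other 7 did not pass the test. Log2 fold changes were -0.40 for *Efna4* (95% interval -0.92 to 0.12), -0.53 for *Efna2* (-1.40 to 0.34), 0.17 for *Efnb3* (-0.10 to 0.44) and 0.02 for *Epha1* (-0.39 to 0.43). They were -0.44 for *Epha7* (-0.86 to -0.02, edgeR adjusted p = 0.0849), -0.65 for *Ephb6* (-1.51 to 0.22) and -1.09 for *Epha8* (-2.53 to 0.35). *Efna2*, a ligand held by a lipid anchor, passed the test with the replicate number as a block (-0.58, edgeR adjusted p = 0.0243) and with the label prefix as a block (-0.58, edgeR adjusted p = 0.0135), and was lower in the mutant in each of the 4 same-numbered pairs. *Epha7*, a mainly neural receptor, passed the test without wild type replicate 1 (log2 fold change -0.54, edgeR adjusted p = 0.0471) and with the replicate number as a block (-0.45, edgeR adjusted p = 0.0223). Over the whole family of 22 genes, 1 of the 19 tested was thus called higher and 7 were called lower, where 21.5% and 22.9% of all tested genes were.

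**Figure D4:**
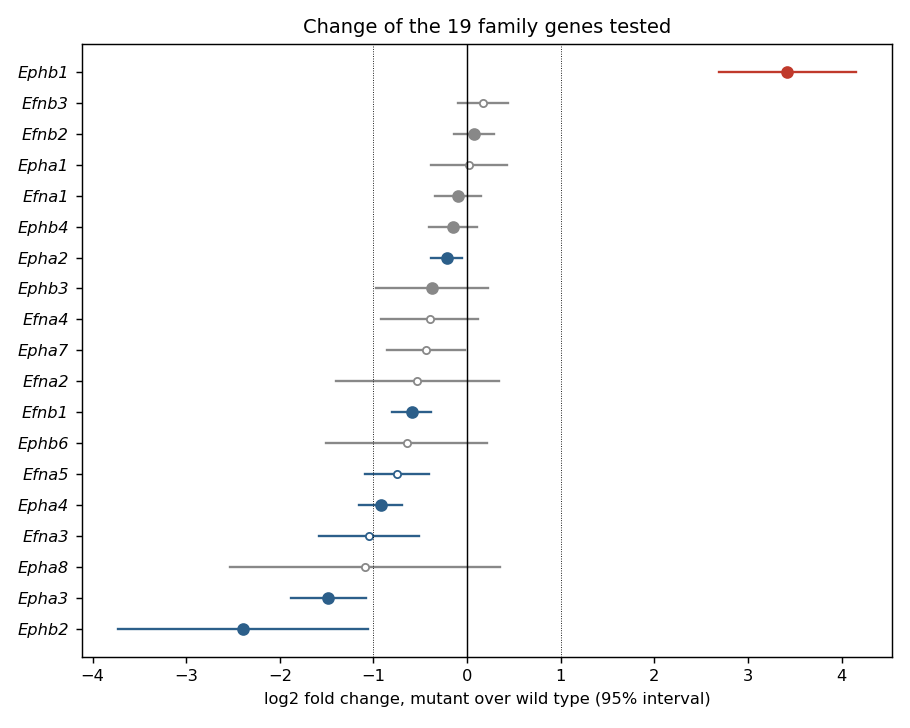
Log2 fold change, mutant over wild type, of the 19 family genes tested, with 95% intervals (x axis). Red and blue mark genes called higher and lower, grey those not called, filled points the 10 genes of the set, open points the others, and dotted lines a log2 fold change of 1 in either direction. *Ephb1* at 3.42 stands alone on the right, and *Ephb2*, *Epha3* and *Efna3* are called and lie left of -1.

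Among genes for proteins that carry Eph and ephrin signals into the cell, transcripts were called in both directions. Of 55 such genes, a list of adaptors, kinases, phosphatases and other signalling proteins that all passed the filter on low counts, 18 were called higher, 17 were called lower and 20 did not pass the test, where 21.5% of all tested genes were higher and 22.9% lower. Their median absolute log2 fold change was 0.31, compared with 0.37 over all tested genes. Differentially expressed and higher were *Vav3*, which acts downstream of Eph receptors, at 1.91 on the log2 scale (standard error 0.15, edgeR adjusted p = 8.6e-06), and *Chn1*, which encodes the Rac inhibitor alpha-chimaerin that EphA4 uses in neurons, with 1.06 (standard error 0.13, edgeR adjusted p = 1.22e-04). *Abl2*, a kinase that acts on the cytoskeleton, was next at 0.76 (edgeR adjusted p = 1.85e-04).

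Differentially expressed and lower were *Grb7*, *Rap1gap*, *Grip2*, *Anks1b* and *Src*. *Grb7*, an adaptor that binds receptor tyrosine kinases, had 92.3 to 169 normalized counts in mutant and 539 to 685 in wild-type libraries, and its log2 fold change was -2.28 (edgeR adjusted p = 1.51e-05). *Src*, of the kinase family that phosphorylates ephrin-B tails, had a log2 fold change of -1.03 (edgeR adjusted p = 1.34e-04). *Fyn* and *Yes1*, of the same family and list, were called higher at 0.63 and 0.31 (edgeR adjusted p = 9.05e-04 and 0.0159). The log2 fold changes of *Rap1gap*, an inhibitor of the small GTPase Rap1, and *Grip2*, a scaffold with PDZ domains, were -1.39 and -1.30 (edgeR adjusted p = 0.00426 and 0.00271). *Anks1b* at -1.08 (edgeR adjusted p = 0.0427), whose groups overlapped, lost its call when any of mutant replicates 1, 2 and 3 or wild type replicates 1 and 3 was left out (edgeR adjusted p up to 0.12). Without the pair of wild-type libraries highest for neuron markers, 18 of the 55 genes were called, 9 in each direction. *Rap1gap* (-1.06, edgeR adjusted p = 0.0574) and *Anks1b* (-0.39, edgeR adjusted p = 0.501) were not among them. Calls over all genes fell as well, to 4947 of 17375 tested in that fit from 7504 of 16887 with all libraries.

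**Figure D5:**
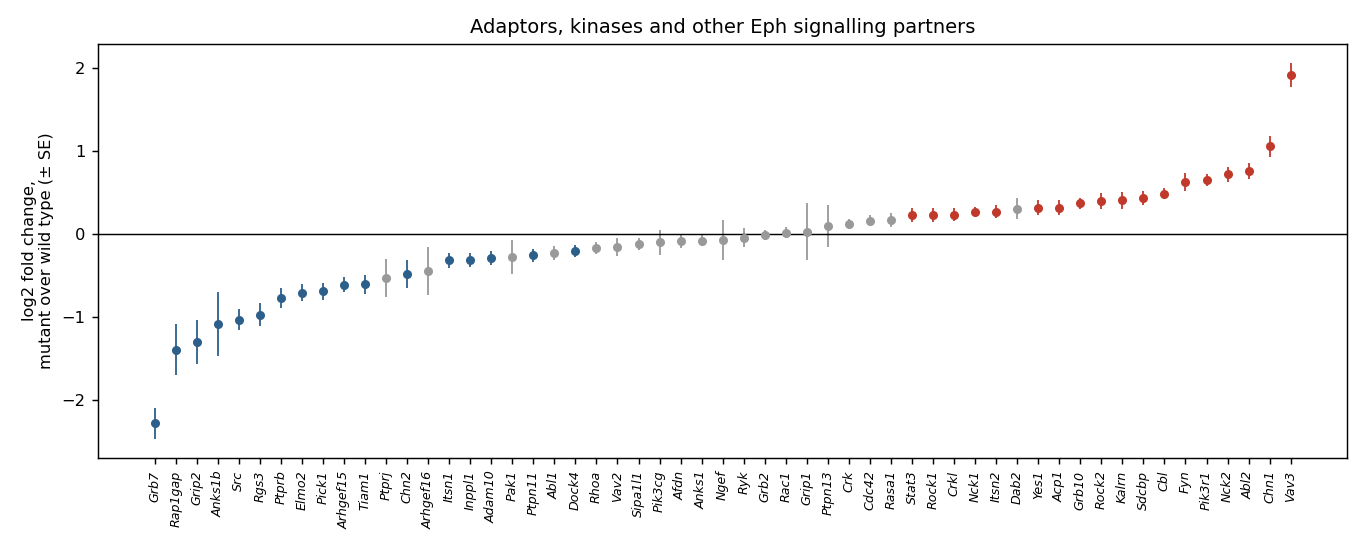
Log2 fold change, mutant over wild type, with its standard error (y axis) of the 55 signalling partners in order of size (x axis), red for genes called higher, blue for genes called lower and grey for genes not called. *Vav3* at 1.91 and *Grb7* at -2.28 lie at the ends.

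Since *Efnb2* and *Ephb4* are used as markers of arteries and veins, other genes with that use were counted beside them. Of 20 arterial genes, all tested, 2 were called higher and 11 lower, with a median log2 fold change of -0.37, where 21.5% of all tested genes were higher and 22.9% lower. *Gkn3* (-2.93) and *Dkk2* (-1.42) fell furthest, and *Cxcr4* (0.93) and *Tm4sf1* (0.90) rose. *Stmn2*, which is among the 11, is also in the neuron list. Of the 15 venous genes tested, 11 were called higher and 2 lower, with a median of 1.04. *Lrg1* (2.41) and *Lcn2* (2.16), both also known as genes of inflammation, rose furthest, and the amino acid transporter gene *Slc38a5* (-2.25) and *Flrt2* (-0.82) fell. *Efnb2* at 0.07 and *Ephb4* at -0.15 were not called beside these lists, and whether they differ from them was not tested.

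The genes whose pattern over the 8 libraries was nearest to *Efnb2* were *Pank2*, *Map3k3* and *Rasip1*, with root mean square differences of 0.04, 0.05 and 0.05 in centred log2 CPM. For *Ephb4* they were *Ap2b1* (0.04), *Dhx35* (0.05) and *Pef1* (0.05). The search covered the 11388 genes that averaged 100 or more normalized counts. None of these 6 was called, which follows from choosing them by nearness to *Efnb2* and *Ephb4*, themselves not called.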

How the data were processed

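RNA was measured in CD31-selected brain ECs of 4 mutant and 4 wild-type pups. The authors used Trimmomatic for trimming and STAR for alignment to GRCm38, and deposited whole-number counts per gene for each library. The counting program, annotation, strand setting and handling of multi-mapping reads are not given in the sources used here. The deposited table of DESeq2-normalized values was not used. Symbols came from GENCODE (48970 of 49315 identifiers matched), and RPKM used the exon lengths in the count files.

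Counts were tested with edgeR 4.0.16 in R 4.3.3 (TMM, filterByExpr with a minimum count of 10, glmQLFit and glmQLFTest across all genes, no covariate). Standard errors were derived from the F statistic. The scripts were tested on simulated data. Alternatives used DESeq2 1.42.0, limma 3.58.1, other scalings and filters, blocks and omitted libraries. Libraries held 24833373 or more counts. Replicates were separate pups, with wild-type pups matched to mutant pups by litter, and the labels do not give the litters.

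The genes of the set and all lists were chosen with earlier results of these data known. Genes named besides the set are the family members tested, partners with an absolute log2 fold change over 1 or among the 3 largest called in each direction, the 2 largest called arterial and venous genes in each direction, and the 3 nearest patterns. *Fyn* and *Yes1* were named outside this rule, beside *Src*.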

Additional observations from a re-analysis of the deposited data

Results flagged for a closer look

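In 3 of 72 groups of 4 libraries checked, over the named genes in each condition, 1 library stood apart from the others by Dixon's criterion, which marks about 1 in 20 groups by chance. *Epha8* had 2.11 normalized counts in wild type 4 and 12.9 to 14.7 in the other wild-type libraries. *Anks1b* had 77.4 normalized counts in mutant 4 and 31.6 to 38.6 in the other mutant libraries. *Flrt2* had 2913 normalized counts in wild type 3 and 3168 to 3207 in the other wild-type libraries. None of the 10 ephrins and Eph receptors of the set was marked.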

How the results depend on the processing

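Of the 10 genes of the set, 5 to 7 were called under every other tool, scaling, filter, block and single omitted library, and 4 without the pair of wild-type libraries highest for neuron markers. With the limit on fold change, 3 were called, and *Efnb1*, *Epha2* and *Epha4* were not. *Ephb1*, *Efnb1*, *Epha3* and *Epha4* kept their call and direction under every other tool, scaling, filter on low counts, block and omission of libraries. When single libraries were omitted, between 5 and 6 genes of the set, 2 and 3 of the other family genes, 25 and 35 of the partners and 6352 and 7319 of all genes were called. Same-numbered mutant and wild-type libraries had correlations of 0.20, 0.21, 0.29 and 0.02 between their deviations from the group means. Replicates 1 and 2, which share a prefix, correlated across the groups at 0.17 to 0.25, while mutant 4 was nearest to wild type 3 (0.38). No source used here says that numbers or prefixes mark litters, so the main test had no block, and both blocks were alternatives. With the replicate block, 6 genes of the set and 4 of the other family genes were called, in place of 2 without it. Of the other family genes 1 passed with the limit on fold change, and of the partners 7 did, 22 passed at an adjusted p under 0.01 and 18 passed without those 2 wild-type libraries. Over all genes, 7504 were called, 2356 with the limit on fold change, 4976 at an adjusted p under 0.01 and 4947 without those 2 libraries. The sign turned for *Ephb3* without those 2 libraries (0.063), and for *Epha1* with upper-quartile scaling (-0.042), with library totals alone (-0.033), with *Xist* as a term (-0.010) and over single omitted libraries (-0.075 to 0.16). Neither gene passed the test in any of these fits, and the cause was not tested. The alternatives without those 2 libraries and with *Xist* were chosen after seeing the data. *Ephb2* had 4 to 25 counts in mutant libraries and was not tested under the stricter filter.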
